A study of Homo sapiens with 18 samples.

Results

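The 10 genes described here are mucins and other genes of the glycocalyx, chosen by name: the mucins MUC1, MUC16 and MUC20, the sialomucin PODXL, the proteoglycans SDC1, SDC4 and GPC1, the hyaluronan synthases HAS2 and HAS3, and the hyaluronan receptor CD44. They are 10 of the 60662 genes in the deposited count table, and their rows were found by gene symbol. The names were picked with the values of all 6 groups already known. Their levels, folds and adjusted p-values are therefore descriptions of these libraries, and how many of them differ is not evidence about the glycocalyx as a whole.

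The cells were MCF10A, an immortalised but not malignant line of human breast epithelium, plated sparsely on compliant polyacrylamide gels coated with Matrigel, a laminin-rich basement membrane extract. After 1 h the cells received growth medium with 2% Matrigel, which sets around them (3D), or fresh growth medium alone (2D). All groups shared the Matrigel coating and a medium with horse serum, EGF, insulin, cholera toxin and hydrocortisone. The 6 groups were 3D at timepoints 1, 2 and 3 and 2D at timepoints 1, 2 and 3, with 3 libraries each. The labels list harvests at 3, 12 and 21 h after plating, and timepoints 1, 2 and 3 are matched to those hours by order alone. All cells are of 1 line, and nothing in the labels says whether libraries came from separate cultures, so a p-value here speaks only of spread among these libraries, which may be technical.

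The glycocalyx is the sugar-rich coat of the cell surface. Transmembrane mucins carry dense O-linked glycans on long extended ectodomains, and their short cytoplasmic tails can signal. Syndecans and glypicans carry heparan sulphate chains that bind growth factors and matrix proteins and, in the case of syndecans, help integrins to attach. Hyaluronan is a long sugar polymer extruded by the HAS enzymes at the plasma membrane and held there partly by CD44. In breast epithelium MUC1 lies on the apical, lumen-facing surface, and syndecans lie mainly on the basolateral side.

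Summed counts per library ran between 49811449 and 93894215 over the 18 libraries, 4.73 to 5.73 times the header totals of 9.314 to 17.749 M reads, which 17 of them have. Reads may therefore have entered a gene's count more than once, so no counting intervals are given and levels are compared mainly within a gene. Floors in counts and counts of overlapping genes are in deposited counts, which need not equal reads. Levels and sums over marker genes are CPM (counts scaled to a common library size) adjusted by the trimmed mean of M-values. Both are made from those deposited counts. Replicate 1 of 2D at timepoint 3, for which the labels name no other file than the raw counts, took no part in the tests. Its values are given beside the others. They were scaled in a run over all 18 libraries and the others in a run over 17, so close values are uncertain. All 9 epithelial markers had a median of at least 1 CPM, KRT5 between 2770 and 8300 CPM, while PGR and CD3E were at 0 in all 18 libraries. In bulk RNA, fewer cells that express a gene and less RNA per cell cannot be told apart.

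"Called" means an adjusted p under 0.05 in edgeR's quasi-likelihood F test over 18592 genes, with Benjamini-Hochberg adjustment over all of them. Of the 10 genes, 9 passed the filter on low counts and were tested, and HAS2 did not. Libraries of 1 replicate number share a date in the labels and tended to deviate together. The value with the replicate number as a block is therefore given wherever it changes a call.

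Promoters are shown for the genes with the most marked behaviour below whose RefSeq start is the start of the gene as counted: MUC1, lower in 3D, SDC4, which fell with time in both cultures, and SDC1, which rose with time. RefSeq's table for GRCh38.p14 held 7 of the 10 genes. Each window runs from 250 bases before the start to the first 50 bases of the transcript, 5′ to 3′ on the gene's own strand, with capitals marking the matches to the motifs named below them.
MUC1, chr1:155192866-155193165, minus strand: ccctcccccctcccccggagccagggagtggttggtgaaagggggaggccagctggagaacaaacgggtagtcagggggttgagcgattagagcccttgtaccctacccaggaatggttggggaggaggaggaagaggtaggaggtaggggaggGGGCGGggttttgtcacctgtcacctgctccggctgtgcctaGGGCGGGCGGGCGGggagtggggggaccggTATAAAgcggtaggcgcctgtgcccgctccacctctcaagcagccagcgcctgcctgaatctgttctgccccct
SDC4, chr20:45348375-45348674, minus strand: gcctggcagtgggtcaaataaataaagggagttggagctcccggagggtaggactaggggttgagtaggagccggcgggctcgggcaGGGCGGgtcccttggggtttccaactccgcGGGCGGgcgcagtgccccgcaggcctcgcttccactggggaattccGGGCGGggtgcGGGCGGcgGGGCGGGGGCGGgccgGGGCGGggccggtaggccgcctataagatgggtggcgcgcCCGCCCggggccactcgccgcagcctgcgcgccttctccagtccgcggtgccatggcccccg
SDC1, chr2:20225081-20225380, minus strand: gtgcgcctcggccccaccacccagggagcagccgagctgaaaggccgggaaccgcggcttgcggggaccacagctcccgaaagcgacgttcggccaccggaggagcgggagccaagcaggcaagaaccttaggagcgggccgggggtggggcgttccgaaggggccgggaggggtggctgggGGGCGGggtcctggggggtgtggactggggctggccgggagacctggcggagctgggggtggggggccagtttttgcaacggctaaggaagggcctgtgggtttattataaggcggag
The motifs searched, on both strands, were the AP-1 site TGANTCA, the GC box GGGCGG, the ETS site CCGGAAG, the STAT site TTCNNNGAA and the TATA box TATAAA. The MUC1 window held 4 GC boxes, of which 3 overlap each other, and a TATA box whose first base lies 24 bases before the start. The SDC4 window held 8 GC boxes and the SDC1 window 1. GPC1's RefSeq start is also that of the counted gene, and its window held 4 GC boxes. GC boxes occur in 45% of the 35116 promoters of the table, TATA boxes in 11.5%, AP-1 sites in 7.71%, ETS sites in 10.3% and STAT sites in 7.66%. None of the last 3 motifs was found in the windows of MUC1, SDC1, SDC4 and GPC1, and these matches are descriptions of letters only.

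At timepoint 1 the 9 tested genes had similar levels in both cultures. None was called, as for 0% of all genes tested, and none had CPM ranges that did not overlap, which 1.84% of genes showed with 3D lower. Differences lay between -0.20 and 0.06 on the log2 scale for MUC1, PODXL, SDC1, SDC4, GPC1, HAS3 and CD44. The 2 genes of low count differed more, MUC16 by -0.63 (SE 0.92) and MUC20 by 1.18 (SE 0.76), each with an adjusted p of 1. At timepoint 3 MUC1 and MUC16 were lower in 3D among the 17 tested libraries and were the called genes of the 10, while MUC20 overlapped between cultures at each timepoint.

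**Figure D1:**
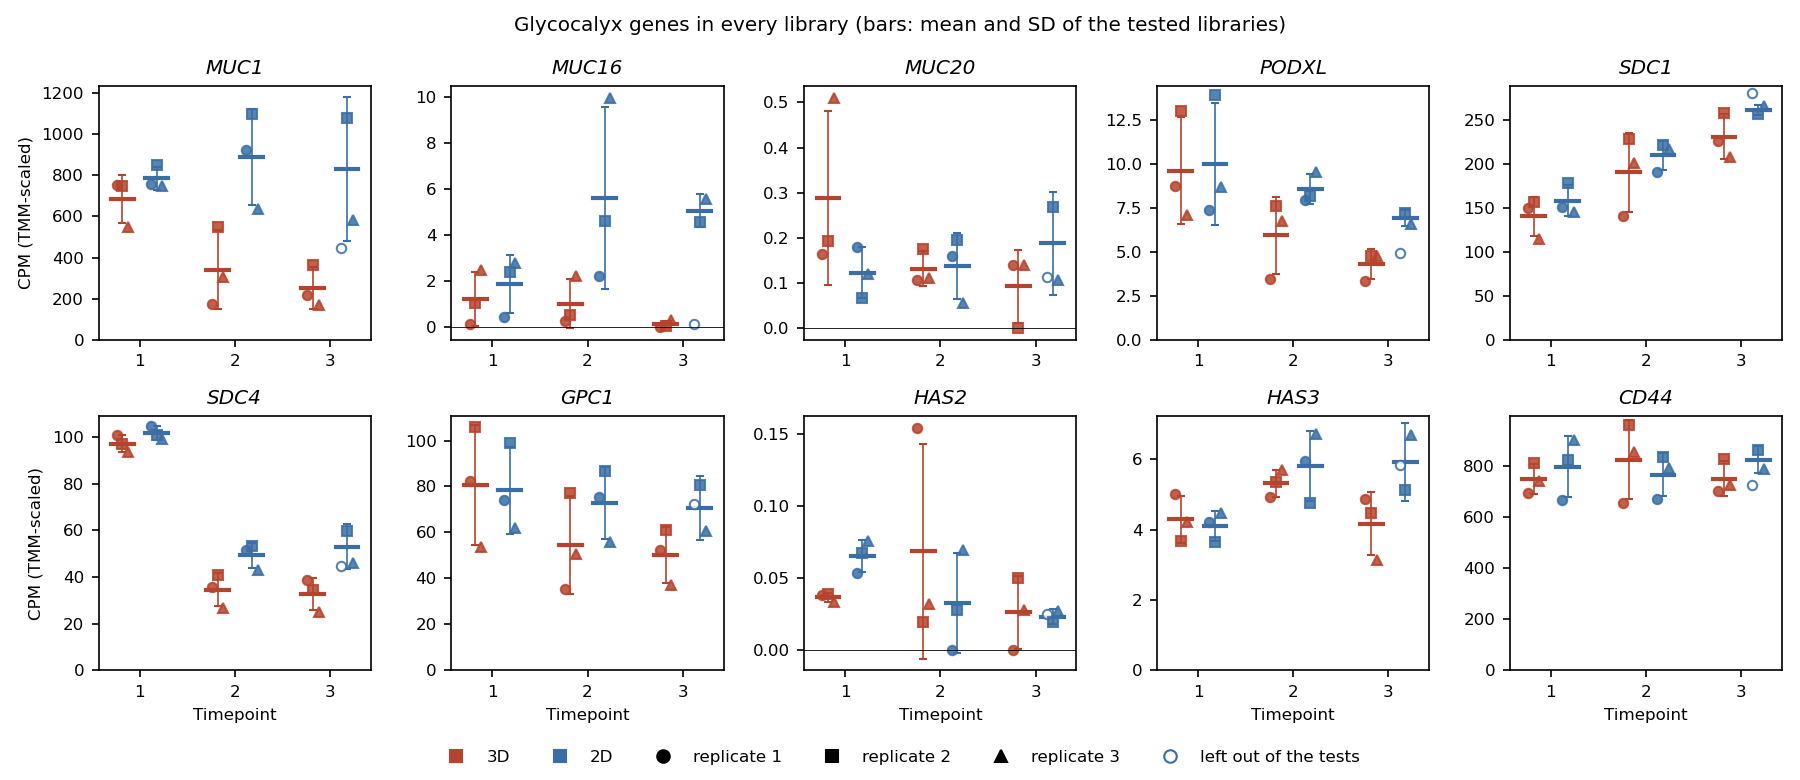
CPM of the 10 genes in every library against timepoint, with 3D in red left of 2D in blue; symbols mark replicate numbers, bars the mean and SD of the tested libraries, and the open symbol the library left out of the tests. MUC1 in 3D at timepoint 3 lies between 167 and 364 CPM, below every 2D library, and SDC4 falls in both cultures after timepoint 1.

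MUC1 (ENSG00000185499.16, chr1:155185824-155192915 on hg38, minus strand) encodes a heavily O-glycosylated transmembrane mucin of glandular surfaces whose cleaved tail can signal inside the cell. At timepoint 1 MUC1 had 753, 750 and 548 CPM in 3D libraries and 758, 849 and 748 CPM in 2D, in replicate order. At timepoint 2 it had 173, 548 and 304 CPM in 3D libraries and 925, 1100 and 638 CPM in 2D. At timepoint 3 it had 220, 364 and 167 CPM in 3D, against 1080 and 583 CPM in the 2D replicates 2 and 3 and 444 CPM in the left-out 2D replicate 1. The cultures overlapped at timepoint 1 and did not overlap at timepoints 2 and 3, with or without the left-out library. No 3D library of timepoints 2 and 3 exceeded 548 CPM, the level of the lowest 3D library at timepoint 1, while the 2D libraries lay both above and below their first levels.

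In group means MUC1 had 342 ± 190 CPM in 3D libraries and 889 ± 235 CPM in 2D at timepoint 2 (SD, n = 3 each), and 250 ± 102 CPM in 3D libraries (n = 3) and 833 ± 354 CPM in 2D (n = 2) at timepoint 3. The 3D over 2D difference was -1.38 (SE 0.37, adjusted p = 0.0666) at timepoint 2 and -1.74 (SE 0.40, adjusted p = 0.0413) at timepoint 3, a level 0.300 times that of 2D. MUC1 and MUC16 were the 2 genes called at timepoint 3, both lower, where 1.5% of all genes were called in either direction. No member was called at timepoint 2, where 1.49% of all genes were called. With the replicate block MUC1 was called at timepoint 2 as well (-1.43, adjusted p = 0.00334), beside 15.9% of all genes called in that fit. In the authors' deposited table MUC1 differed by -1.53 at timepoint 2 (adjusted p = 0.0405) and -1.78 at timepoint 3 (adjusted p = 0.0334).

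The MUC1 call at timepoint 3 depended on single libraries. It held in 9 of the 17 fits that left out 1 library, with adjusted p between 0.0181 and 0.602. The fit without 2D timepoint 3 replicate 2, the library with 1080 CPM, gave -1.23, and the call was also lost without 3D timepoint 1 replicate 1, 3D timepoint 2 replicate 3, 3D timepoint 3 replicate 1 or 3, 2D timepoint 1 replicate 1 or 2, or 2D timepoint 2 replicate 1. Without any 1 of these libraries of timepoints 1 and 2, which are outside this contrast, the difference stayed at -1.74. With the left-out library added, the difference was -1.49 and was not called (adjusted p = 0.292).

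Within each replicate number MUC1 was lower in 3D at every timepoint. At timepoint 2 the log2 difference of CPM was -2.42, -1.01 and -1.07 in replicates 1, 2 and 3. At timepoint 3 it was -1.58 and -1.80 in replicates 2 and 3, and -1.01 in replicate 1, which uses the left-out library. At timepoint 1 the values were nearer to 0, at -0.01, -0.18 and -0.45. The summed level of the luminal markers ESR1, PGR, FOXA1 and GATA3 was also lower in 3D at timepoints 2 and 3. It was 9.19 to 11.7 CPM in 3D libraries and 12.7 to 14.5 CPM in 2D at timepoint 2. At timepoint 3 it was 8.43 to 10.4 CPM in 3D libraries and 11.3 to 14.8 CPM in 2D. Of these 4 markers, 2 had a median of at least 1 CPM and PGR was at 0 throughout. The sum is mostly GATA3, with a median of 9.73 CPM beside 1.92 CPM for FOXA1 and 0.213 CPM for ESR1. At timepoint 1 the sum was 10.3 to 15.2 CPM in 3D libraries and 12.1 to 13.9 CPM in 2D. The endothelial sum, given further below, was also lower in 3D without overlap at timepoints 2 and 3. The part of these markers in the MUC1 result was not tested.

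**Figure D2:**
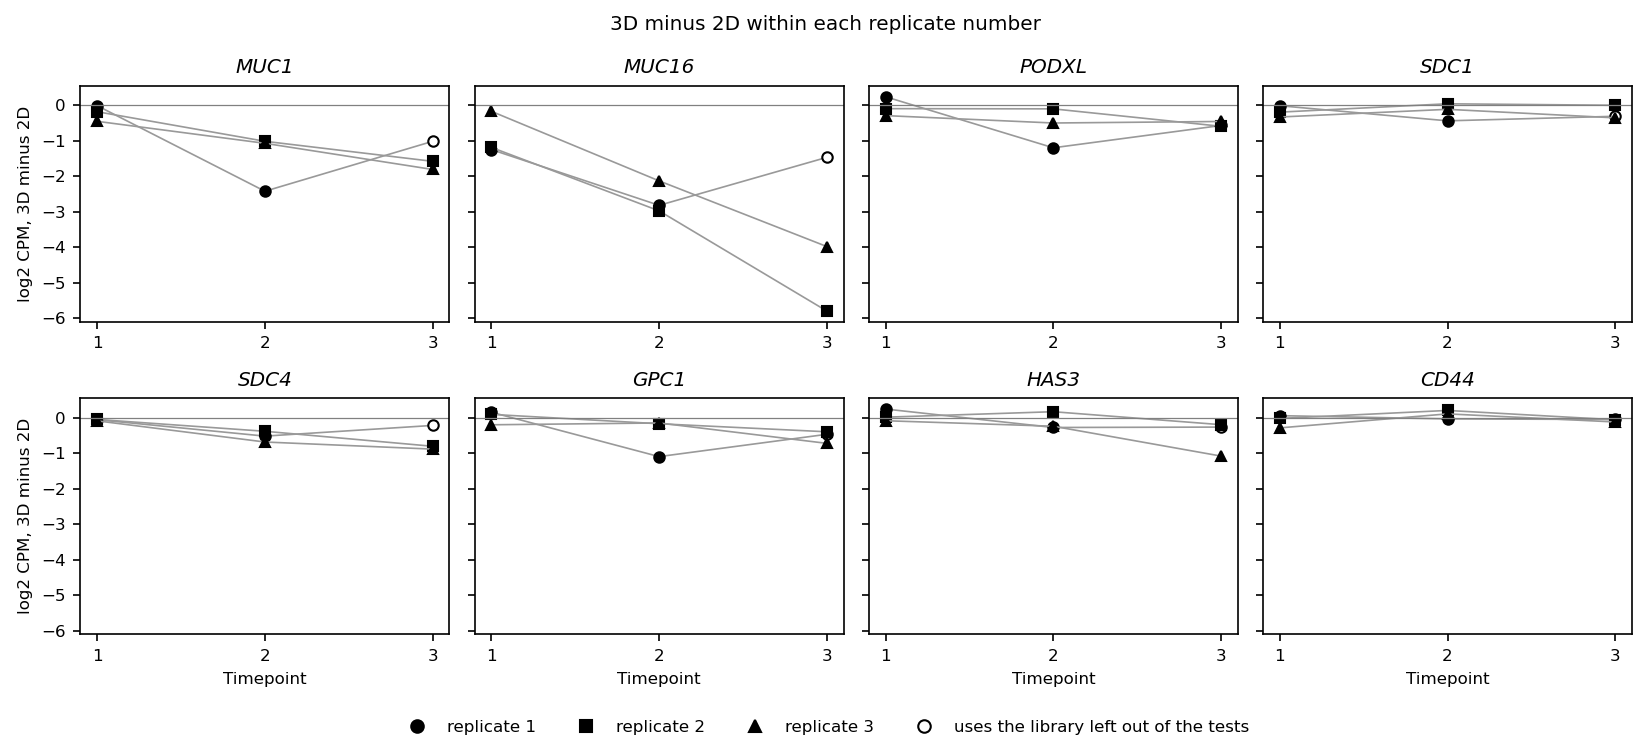
Log2 CPM in 3D minus log2 CPM in 2D within each replicate number, for 8 of the genes at 3 timepoints; open symbols use the library left out of the tests. MUC1 reaches -2.42 in replicate 1 at timepoint 2, and MUC16 reaches -5.79 in replicate 2 at timepoint 3.

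MUC16 (ENSG00000181143.15, chr19:8848844-8981342, minus strand) encodes a very long transmembrane mucin of mucosal surfaces whose shed ectodomain carries the CA125 antigen. It was scarce here. At timepoint 1 MUC16 had 0.151, 1.03 and 2.46 CPM in 3D libraries and 0.427, 2.41 and 2.77 CPM in 2D. At timepoint 2 it had 0.273, 0.547 and 2.24 CPM in 3D libraries and 2.22, 4.62 and 9.96 CPM in 2D. At timepoint 3 it had 0.0139, 0.0333 and 0.307 CPM in 3D, from counts of 1, 2 and 22, against 4.56 and 5.55 CPM in 2D, from counts of 237 and 416. The left-out 2D library had 0.126 CPM, from 10 counts, inside the range of 3D. Replicate 1 had the lowest MUC16 of its group at each timepoint and in each culture.

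The cultures overlapped in MUC16 at timepoints 1 and 2 and, among the tested libraries, not at timepoint 3. The 3D over 2D difference was -2.46 (SE 0.95, adjusted p = 0.168) at timepoint 2, and with the replicate block MUC16 was called there (-2.70, adjusted p = 0.00125). It was -5.37 (SE 1.20, adjusted p = 0.0366) at timepoint 3. Of the 3D libraries at timepoint 3, replicates 1 and 2 held fewer than 3 counts, taken as the detection floor, so the size of that difference depends on the prior count of the fit. The difference was -4.80 with the left-out library added (adjusted p = 0.342). The call held in 13 of 17 fits that left out 1 library and was lost without 3D timepoint 3 replicate 1 or 2 or without either 2D library of timepoint 3, with adjusted p up to 0.182. Within replicate numbers the log2 difference of MUC16, 3D minus 2D, was -2.81, -2.97 and -2.13 in replicates 1, 2 and 3 at timepoint 2. The authors' deposited table gave -2.82 at timepoint 2 (adjusted p = 0.0984) and -6.32 at timepoint 3 (adjusted p = 0.0361).

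MUC20 (ENSG00000176945.17, chr3:195720995-195733504, plus strand), a smaller transmembrane mucin, had 0 to 31 counts per library. Its highest library was 3D timepoint 1 replicate 3, and 3D timepoint 3 replicate 2 was at 0 counts. MUC20 has near-identical pseudogene copies among which reads can be split, so its level is uncertain. It was not called in any comparison. Its mean was 0.131 ± 0.0387 CPM in 3D libraries and 0.137 ± 0.0729 CPM in 2D at timepoint 2 (SD, n = 3 each).

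PODXL (ENSG00000128567.17, chr7:131500262-131556563, minus strand) encodes podocalyxin, a sialomucin of apical membranes that binds ezrin through scaffold proteins. At timepoint 1 PODXL had 8.74, 13.0 and 7.11 CPM in 3D libraries and 7.38, 13.9 and 8.69 CPM in 2D. At timepoint 2 it had 3.45, 7.61 and 6.74 CPM in 3D libraries and 7.97, 8.15 and 9.53 CPM in 2D. At timepoint 3 it had 3.33, 4.79 and 4.79 CPM in 3D libraries and 7.23 and 6.58 CPM in 2D, with 4.95 CPM in the left-out 2D library. The cultures did not overlap at timepoints 2 and 3, but the differences of -0.53 (SE 0.30, adjusted p = 0.336) and -0.68 (SE 0.33, adjusted p = 0.277) were not called. Within replicate numbers PODXL differed by -1.19, -0.10 and -0.50 at timepoint 2, 3D minus 2D.

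Ranges that did not overlap were common among all genes as well. At timepoint 2, MUC1, PODXL and SDC4 were lower in 3D without overlap, 3 of 9 tested genes beside 13% of all tested genes. At timepoint 3, MUC1, MUC16, PODXL, SDC4 and HAS3 were, 5 of 9 beside 20.2%. With the left-out library added, 4 of 9 were, beside 7.82% of all genes in those 18 libraries. PODXL stayed among them narrowly, with up to 4.79 CPM in 3D against 4.95 CPM in the left-out library. None of the 9 was higher in 3D without overlap at either timepoint, beside 14.8% and 18.9% of all genes. The median difference of the 9 was -0.06, -0.42 and -0.68 at timepoints 1, 2 and 3, beside 0.00, -0.03 and 0.02 for all tested genes. The values describe genes chosen with these levels known. The cultures were apart in measures of the libraries too. The mitochondrial share of counts was 0.364 to 0.482% in 3D libraries and 0.908 to 1.18% in 2D at timepoint 2, and 0.398 to 0.533% in 3D libraries and 0.589 to 0.783% in 2D at timepoint 3, while it overlapped at timepoint 1. Summed counts were 5.54 to 5.73 times the header total in 3D libraries and 4.96 to 5.26 times in 2D at timepoint 2. At timepoint 3 this ratio overlapped, at 5.29 to 5.60 in 3D libraries and 5.36 to 5.41 in the tested 2D libraries. The part of these measures in the results was not tested.

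**Figure D3:**
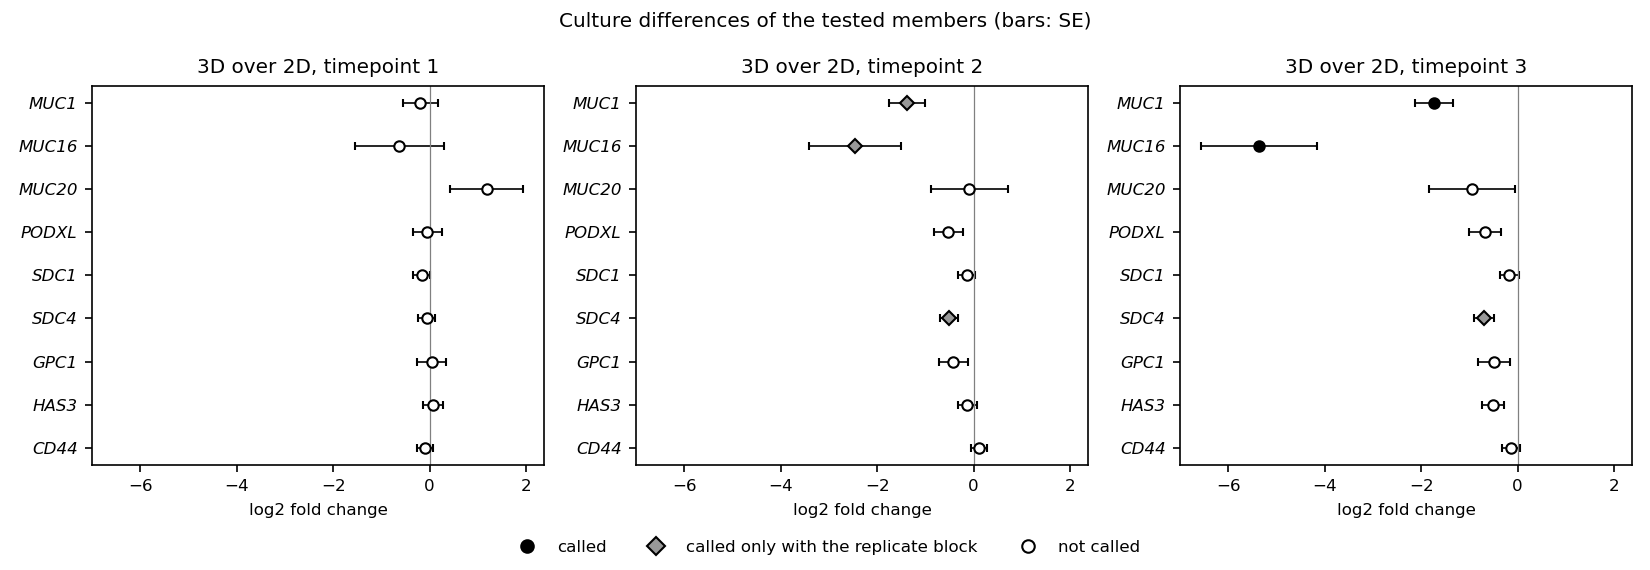
Log2 fold change of 3D over 2D at 3 timepoints for the 9 tested genes, with SE as bars; filled circles were called, grey diamonds were called only with the replicate block and open circles were not called. At timepoint 3 all 9 values lie below 0, and MUC1 at -1.74 and MUC16 at -5.37 are the called ones.

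SDC4 (ENSG00000124145.6, chr20:45325288-45348424, minus strand) encodes a syndecan of focal adhesions that works with integrins and protein kinase C. At timepoint 1 SDC4 had 101, 97.3 and 93.5 CPM in 3D libraries and 105, 101 and 99.4 CPM in 2D. At timepoint 2 it had 35.9, 40.9 and 26.8 CPM in 3D libraries and 51.4, 53.4 and 43.1 CPM in 2D. At timepoint 3 it had 38.5, 34.3 and 25.0 CPM in 3D libraries and 59.9 and 46.1 CPM in 2D, with 44.7 CPM in the left-out 2D library. Every later library lay below every library of timepoint 1, in both cultures. The 3D libraries lay below the 2D libraries at both later timepoints, also with the left-out library included.

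SDC4 fell with time in both cultures. At timepoint 2 against timepoint 1 it changed by -1.49 in 3D (SE 0.19, adjusted p = 9.18e-05), to 0.355 times its first level, and by -1.05 in 2D (SE 0.18, adjusted p = 0.00269). At timepoint 3 against timepoint 1 it changed by -1.58 in 3D (SE 0.19, adjusted p = 5.07e-05) and by -0.94 in 2D (SE 0.21, adjusted p = 0.0163). Both 3D calls and the 2D call at timepoint 2 held in all 17 fits without 1 library. The 2D call at timepoint 3 was lost without 2D timepoint 3 replicate 2 (adjusted p = 0.0618) or 3 (adjusted p = 0.208). SDC4 was the single member called at timepoint 2 against timepoint 1, in 3D beside 15.1% of all genes and in 2D beside 5.87%.

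The 3D over 2D difference of SDC4 was -0.51 (SE 0.18, adjusted p = 0.138) at timepoint 2 and -0.70 (SE 0.20, adjusted p = 0.0963) at timepoint 3. With the replicate block it was called at both, at -0.52 (adjusted p = 0.0135) and -0.76 (adjusted p = 0.00447), where 15.9% and 9.75% of all genes were called. The difference between the cultures in their change with time was -0.45 (SE 0.26, adjusted p = 0.629) at timepoint 2 and -0.64 (SE 0.27, adjusted p = 0.574) at timepoint 3, and it was not called. Within replicate numbers SDC4 differed by -0.52, -0.38 and -0.68 at timepoint 2, 3D minus 2D, and by -0.80 and -0.88 in replicates 2 and 3 at timepoint 3. The value for replicate 1 at timepoint 3, which uses the left-out library, was -0.22.

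SDC1 (ENSG00000115884.11, chr2:20200797-20225130, minus strand) encodes the main syndecan of epithelia, a heparan sulphate co-receptor whose ectodomain is readily shed. In 3D SDC1 had 150, 156 and 115 CPM at timepoint 1, 141, 228 and 201 CPM at timepoint 2, and 226, 258 and 208 CPM at timepoint 3. In 2D it had 151, 178 and 145 CPM at timepoint 1, 190, 221 and 217 CPM at timepoint 2, and 257 and 265 CPM at timepoint 3, with 280 CPM in the left-out library. All libraries of timepoint 3 lay above all libraries of timepoint 1. SDC1 thus moved opposite to SDC4 over the same hours.

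SDC1 rose at timepoint 3 against timepoint 1 by 0.71 in 3D (SE 0.18, adjusted p = 0.0166) and by 0.72 in 2D (SE 0.20, adjusted p = 0.044). The 3D call was lost without 3D timepoint 3 replicate 2 (adjusted p = 0.0611), and the 2D call held in 5 of 17 fits without 1 library, with adjusted p between 0.0203 and 0.224. At timepoint 2 the change in 3D was 0.43 (adjusted p = 0.111), and with the replicate block it was called (0.42, adjusted p = 0.0416). The cultures overlapped in SDC1 at each timepoint. The difference of 3D over 2D was -0.14 at timepoint 2 and -0.18 at timepoint 3 (adjusted p = 0.692 and 0.641), with 95% intervals from -0.49 to 0.21 and from -0.57 to 0.21.

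GPC1 (ENSG00000063660.9, chr2:240435663-240468076, plus strand) encodes a glypican, a heparan sulphate proteoglycan held by a lipid anchor. In 3D GPC1 had 82.3, 106 and 53.7 CPM at timepoint 1, 35.2, 77.3 and 50.5 CPM at timepoint 2, and 52.4, 61.2 and 36.9 CPM at timepoint 3. In 2D its range was 61.7 to 99.1 CPM at timepoint 1, 56.0 to 86.9 CPM at timepoint 2 and 60.8 to 80.6 CPM at timepoint 3. Replicate 3 was below replicate 2 in every group, and the cultures overlapped throughout. No change of GPC1 was called without the block. With the block its change in 3D was called at timepoint 2 (-0.56, adjusted p = 0.0309) and at timepoint 3 against timepoint 1 (-0.67, adjusted p = 0.0149).

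In the same time comparison of 3D, timepoint 3 against timepoint 1, MUC1, PODXL and SDC4 fell and SDC1 rose, 4 of 9 tested genes, beside 11% of all genes. MUC1 changed by -1.45 (SE 0.37, adjusted p = 0.0187). PODXL changed by -1.16 (SE 0.30, adjusted p = 0.0214), to 0.447 times its first level. The MUC1 call was lost without 3D timepoint 1 replicate 1 or 2 or 3D timepoint 3 replicate 1 or 3, with adjusted p up to 0.095. The PODXL call was lost without 3D timepoint 1 replicate 2 (adjusted p = 0.12) or 3D timepoint 3 replicate 1 (adjusted p = 0.0911) or 3 (adjusted p = 0.0533).

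MUC16 changed by -3.29 in that comparison (SE 1.14, adjusted p = 0.0751), and with the replicate block it was called (-3.25, adjusted p = 0.000622), when 6 of the 9 genes were called, 5 of them lower, beside 23.9% of all genes. At timepoint 2 against timepoint 1 in 3D, MUC1 (-1.08, adjusted p = 0.00674) and PODXL (-0.74, adjusted p = 0.0238) were called with the block only, as were SDC1 and GPC1, when 28.4% of all genes were called. In 2D at timepoint 2 the block gave MUC16 a change of 1.70 (adjusted p = 0.00978), against 1.59 (adjusted p = 0.388) without it, and called 13.7% of all genes. In 2D at timepoint 3 SDC1 and SDC4 were the called genes, beside 4.86% of all genes. MUC1 in 2D differed from timepoint 1 by 0.18 at timepoint 2 and 0.09 at timepoint 3, with 95% intervals from -0.53 to 0.89 and from -0.71 to 0.88.

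**Figure D4:**
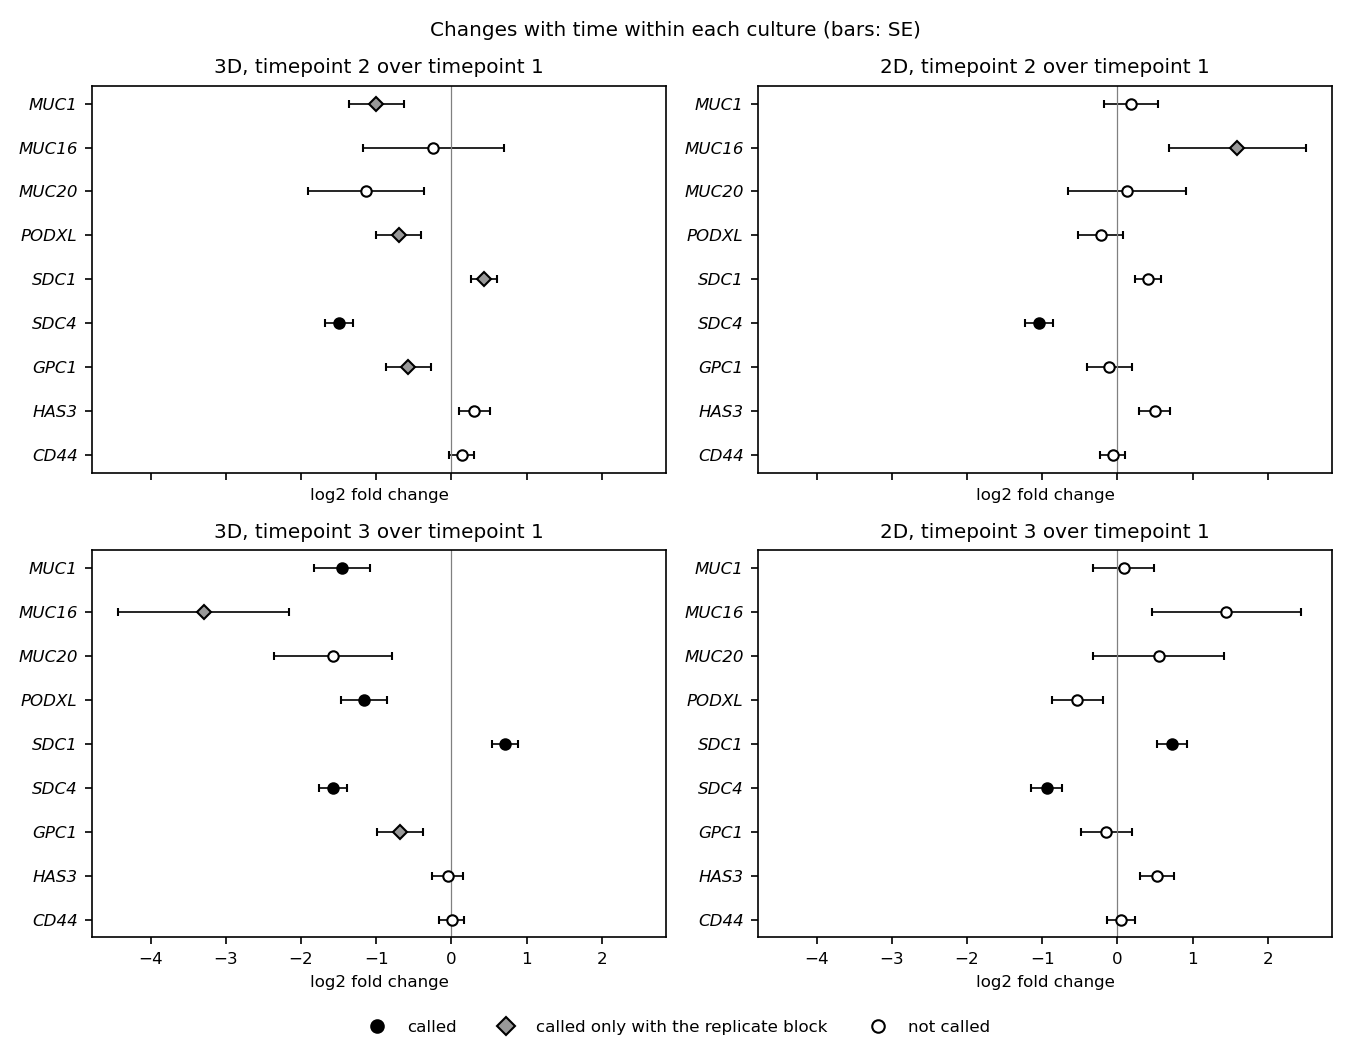
Log2 fold change of timepoints 2 and 3 over timepoint 1 within 3D (left) and 2D (right), with SE as bars and symbols as filled for called, grey for called only with the replicate block and open for not called. SDC4 lies between -1.58 and -0.94 in all 4 panels, and MUC1 is at -1.45 in 3D and at 0.09 in 2D at timepoint 3.

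Whether the change with time differed between the cultures was tested directly, and none of the 9 genes was called, beside 0% of all genes at timepoint 2 and 0.183% at timepoint 3. By edgeR's test without adjustment, 1 of the 9 had p under 0.05 at timepoint 2, beside 1624 of all 18592 genes. At timepoint 3, 3 of the 9 did, beside 1538 of all 18592 genes. DESeq2 called none of the 9 at either timepoint. At timepoint 3 the interaction was -1.54 for MUC1 (SE 0.54, adjusted p = 0.471) and -4.74 for MUC16 (SE 1.51, adjusted p = 0.394). With the replicate block MUC16 was called (-4.29, adjusted p = 0.00977), beside 1.56% of all genes. The changes of MUC1 with time in 3D and in 2D are therefore not shown to differ by this test.

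Of the hyaluronan genes, HAS3 and CD44 were not called in any comparison, and HAS2 was not tested. HAS2 (ENSG00000170961.7, chr8:121612116-121641440, minus strand), an enzyme that makes long hyaluronan chains, had 0 to 5 counts in 17 libraries and 13 in 3D timepoint 2 replicate 1. A floor of 3 counts corresponds to 0.032 to 0.0586 CPM in these libraries, and no fold is given. The antisense gene HAS2-AS1, which overlaps it, had a median of 2.5 counts per library against 2 for HAS2.

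HAS3 (ENSG00000103044.11, chr16:69106257-69118719, plus strand), an enzyme that makes shorter chains, had 4.86, 4.48 and 3.15 CPM in 3D libraries and 5.14 and 6.71 CPM in 2D at timepoint 3, with 5.85 CPM in the left-out 2D library. The cultures did not overlap there, and the difference of -0.51 (SE 0.23, adjusted p = 0.238) was not called. At timepoint 2 the means were 5.32 ± 0.382 CPM in 3D libraries and 5.81 ± 0.996 CPM in 2D (SD, n = 3 each). HAS3 is overlapped on the other strand by DERPC, which had a median of 2905 counts per library against 345 for HAS3. Whether reads were counted by strand is not stated, so HAS3 values are uncertain.

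CD44 (ENSG00000026508.18, chr11:35138870-35232402, plus strand), the main hyaluronan receptor and a common stem and basal cell marker, kept between 656 and 961 CPM in all 18 libraries. Its means at timepoint 3 were 750 ± 67.6 CPM in 3D libraries (n = 3) and 824 ± 52.5 CPM in 2D (n = 2). The difference of 3D over 2D was 0.11 at timepoint 2, with a 95% interval from -0.22 to 0.43, and -0.13 at timepoint 3, with an interval from -0.50 to 0.23. Scaled by the header totals, which moved the median of all genes to -0.23 at timepoint 2, the first of these became -0.10.

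Over the 6 groups MUC1 and MUC16 had one order of mean level: 3D timepoint 3, 3D timepoint 2, 3D timepoint 1, 2D timepoint 1, 2D timepoint 3 and 2D timepoint 2, low to high. In MUC1 all 5 neighbouring pairs of that order overlapped in their libraries, and in MUC16 4 of 5 did. SDC4 ran from 3D timepoint 3 through 3D timepoint 2, 2D timepoint 2, 2D timepoint 3 and 3D timepoint 1 to 2D timepoint 1, with 3 of 5 neighbours overlapping. SDC1 ran upwards with time, with 3D before 2D at each timepoint, and all neighbours overlapped.

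For the genes called between cultures, the genes most alike in log2 CPM over the 17 tested libraries were named. For MUC1 they were LAMB2 (Pearson r = 0.958), a laminin chain, CDH3 (r = 0.957), P-cadherin, and CTSD (r = 0.953), a lysosomal protease. For MUC16 they were MYO5B (r = 0.939), a motor of apical recycling, SPRR2D (r = 0.897), a cornified envelope protein, and CLDN7 (r = 0.884), a claudin. The 17 points share timepoints, replicate numbers and scaling, and r is a description.

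Besides the 10 genes, 7 lists of related genes written from general knowledge were read: other mucins and sialomucins, other proteoglycans, hyaluronan turnover, glycosaminoglycan synthesis, mucin-type O-glycan synthesis, ectodomain shedding, and galectins with the ezrin link to actin. The lists were written with earlier results of these data known, so the shares called among them, here and over time, are descriptions. Of 140 genes in all, 115 were tested. None was called between cultures at timepoint 1, 1 was at timepoint 2 and 3 were at timepoint 3, all with lower values in 3D, which is 0.87% and 2.61% of those tested beside 1.49% and 1.5% of all genes. With the replicate block 3 were called higher and 9 lower at timepoint 2, and 3 higher and 7 lower at timepoint 3, which is 10.4% and 8.7% of those tested beside 15.9% and 9.75% of all genes. MUC21 and CSPG4 reached 10 counts, the minimum behind the filter, in tested 2D libraries alone, so their differences are no test. Both are among the 115, and the 3 genes called at timepoint 3, hence the 2.61%, include MUC21. The shares with the block rest on the same 115 genes. No median is given for the other mucins and the other proteoglycans. The medians of the 5 remaining lists at timepoint 3 ran from -0.29 for ectodomain shedding to 0.08 for the O-glycan enzymes, beside 0.02 for all genes.

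The genes behind these calls were MMP7, GFPT2 and, of those that passed the filter through 2D alone, MUC21. MMP7, a metalloprotease that sheds surface proteins, had 0.712, 0.82 and 0.553 CPM in 3D libraries and 1.51, 1.25 and 2.05 CPM in 2D at timepoint 2, a log2 difference of -1.21 (SE 0.28, adjusted p = 0.046). At timepoint 3 MMP7 had 0.487, 0.549 and 0.362 CPM in 3D libraries and 1.04 and 1.43 CPM in 2D (-1.41, SE 0.32, adjusted p = 0.0366), with 0.391 CPM in the left-out 2D library. MUC21, a transmembrane mucin, had 0, 2 and 0 counts in 3D and 18 and 28 counts in 2D at timepoint 3, with 0 in the left-out library. It reached 10 counts in 0 of 9 libraries of 3D and in 4 of the 8 tested libraries of 2D, and no fold or p is given. GFPT2, an enzyme of the hexosamine pathway that feeds hyaluronan and glycan synthesis, had 3.27, 3.81 and 3.32 CPM in 3D libraries and 9.12 and 5.29 CPM in 2D (-1.05, SE 0.25, adjusted p = 0.0491), with 3.5 CPM in the left-out library. In MMP7, MUC21 and GFPT2 the left-out 2D library lay within the 3D range of timepoint 3, and neither MMP7 nor GFPT2 was called there with it included.

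**Figure D5:**
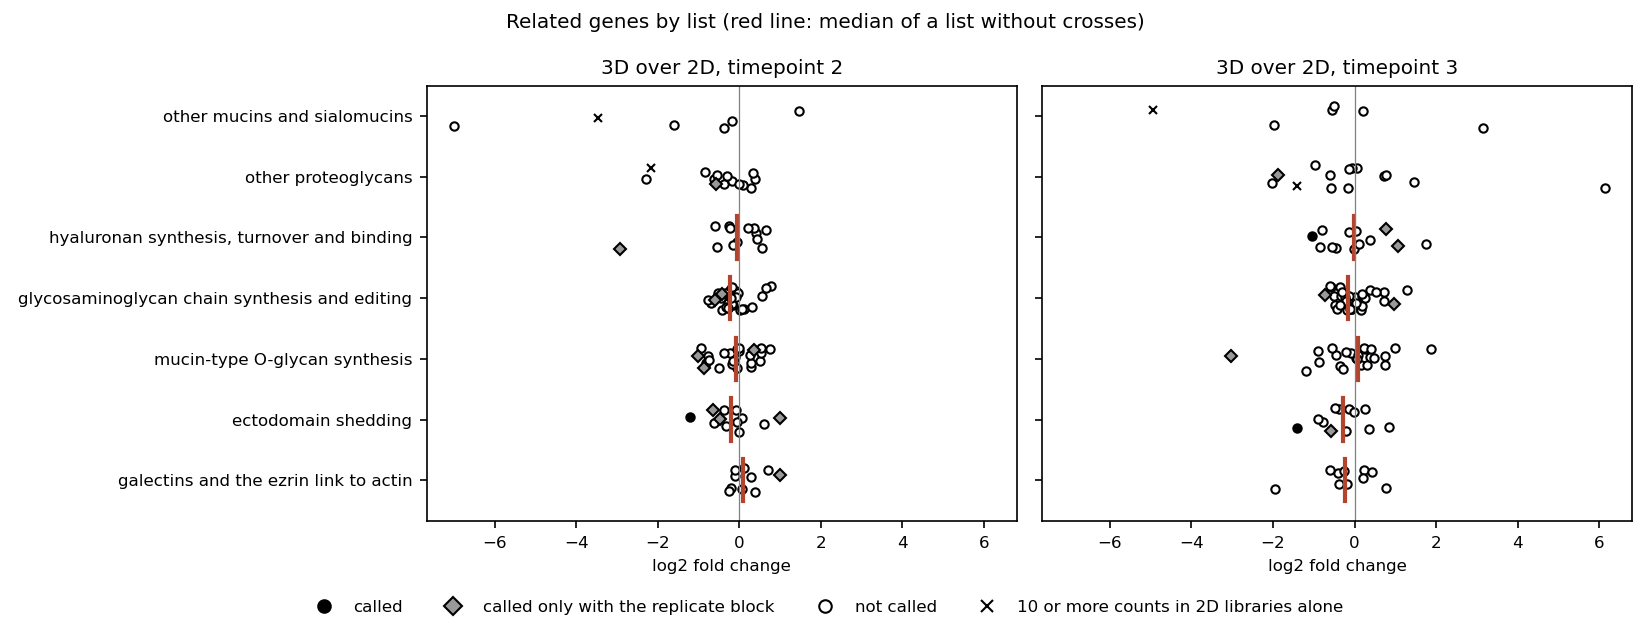
Log2 fold change of 3D over 2D at timepoints 2 and 3 for the tested genes of 7 lists of related genes; red lines mark list medians, filled circles called genes, grey diamonds genes called only with the replicate block, crosses MUC21 and CSPG4, which reached 10 counts in 2D libraries alone, and open circles the rest. The filled circles are MMP7 at -1.21 and -1.41 and GFPT2 at -1.05, and lists with a cross have no median line.

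Calls over time among these genes were as follows, beside the shares of all genes. In 3D, 7 of the 115 rose and 14 fell at timepoint 2 against timepoint 1 (18.3%, beside 15.1% of all genes), and 3 rose and 15 fell at timepoint 3 (15.7%, beside 11%). In 2D, 2 rose and 6 fell at timepoint 2, and 3 rose and 5 fell at timepoint 3 (6.96% each, beside 5.87% and 4.86%). The following examples were chosen after their values were seen. TNFAIP6, which crosslinks hyaluronan, fell to 0.335 ± 0.236 CPM at timepoint 2 in 3D, against 4.85 ± 1.82 CPM at timepoint 1 (SD, n = 3 each; -3.90, adjusted p = 0.000112), and it changed by -3.48 in 2D (adjusted p = 0.000456). EXT1, a polymerase of heparan sulphate, changed by -1.48 in 3D (adjusted p = 1.23e-05) and by -1.10 in 2D (adjusted p = 0.000382). CHST15, a sulphotransferase of chondroitin chains, changed by -2.22 in 3D (adjusted p = 9.26e-05) and by -1.68 in 2D (adjusted p = 0.00154).

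The shedding protease ADAM17 changed at timepoint 2 by -1.60 in 3D (adjusted p = 0.00051) and by -0.95 in 2D (adjusted p = 0.0271). EZR, the ezrin that ties PODXL and other surface proteins to actin, changed by -1.27 in 3D (adjusted p = 0.00629) and by -1.04 in 2D (adjusted p = 0.032). CEMIP, a protein needed for hyaluronan breakdown, rose in 3D to 0.64 ± 0.279 CPM, against 0.112 ± 0.105 CPM at timepoint 1 (2.47, adjusted p = 0.00891). TIMP1, an inhibitor of metalloproteases, rose by 1.33 in 3D at timepoint 2 (adjusted p = 0.0048). No gene of these lists was called in the direct test of whether the change with time differed between cultures, so calls in 3D alone are not shown to be particular to 3D.

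The summed level of the 9 basal and general epithelial markers in 3D was 8090 to 14300 CPM at timepoint 1, 6460 to 7400 CPM at timepoint 2 and 4150 to 7710 CPM at timepoint 3. In 2D it was 7360 to 14800, 6280 to 8200 and 4770 to 9680 CPM at timepoints 1, 2 and 3. In 3D the later libraries did not overlap those of timepoint 1, and the cultures overlapped at each timepoint. The immune sum was 5.61 to 8.35 CPM in 3D libraries and 5.74 to 6.57 CPM in 2D at timepoint 1, and 13.8 to 20.8 CPM in 3D libraries and 14.3 to 20.0 CPM in 2D later; 1 of its 5 markers, CD68, had a median of at least 1 CPM, and PTPRC was at 0 in 16 libraries. The endothelial sum was 3.46 to 4.45 CPM in 3D libraries and 4.08 to 6.97 CPM in 2D at timepoint 1, 1.42 to 1.52 CPM in 3D libraries and 3.18 to 3.79 CPM in 2D at timepoint 2, and 1.74 to 1.90 CPM in 3D libraries and 1.96 to 3.04 CPM in 2D at timepoint 3, from PECAM1 and KDR, while VWF and CDH5 were at 0 in 11 libraries each. The fibroblast sum was 3.68 to 7.22 CPM in 3D libraries and 4.29 to 4.93 CPM in 2D at timepoint 1, 2.56 to 5.02 CPM in 3D libraries and 2.06 to 3.04 CPM in 2D at timepoint 2, and 1.74 to 4.01 CPM in 3D libraries and 2.42 to 3.28 CPM in 2D at timepoint 3, with COL1A2 at 0 in 16 libraries. Their part in the results was not tested.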

How the data were processed

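Poly-A RNA of MCF10A cells was sequenced in 18 libraries (50-base single-end reads). Per the submitters' processing notes, STAR 2.7.1a, HOMER, edgeR and limma were used on hg38; their roles, the annotation release and the handling of strand are not stated in the sources at hand. The authors deposited raw counts of 60662 genes, and, for each timepoint, a table with their log2 fold change, p-value and adjusted p-value of 3D minus 2D. All sample columns of the count table were mapped from their titles.

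Counts as deposited were filtered with filterByExpr (18592 genes left), scaled by TMM and fitted in edgeR 4.0.16 under R 4.3.3 (glmQLFit, glmQLFTest) in 1 fit of 17 libraries, in 9 comparisons, with Benjamini-Hochberg adjustment over all genes tested. CPM values are group means with SD, and within-replicate differences add 0.05 CPM. Likeness used log2 CPM with a prior count of 2 over genes with a mean of at least 1 CPM.

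Libraries of 1 replicate number share a date in the labels. Their deviations from group means correlated by 0.324 on average within a timepoint (8 pairs, 0.186 to 0.513). Over all groups the average was 0.209 (40 pairs, -0.0405 to 0.513). Pairs of different numbers averaged -0.104 (80 pairs, -0.368 to 0.225), and the ranges overlapped. Deviations cancel out within a group, which pushes that last average down, so it is no separate evidence of pairing. The members and lists were chosen with earlier results of these data known. All 10 members were named in every comparison, and of each related list the genes called between cultures, up to 4. The related genes named for changes with time were outside this rule and were chosen after their values were seen. Alternatives were DESeq2 1.42.0, other scalings and filters, all 18 libraries, the replicate block and leaving out libraries. Leaving out all libraries of 1 replicate number, and the header totals as library sizes, were added after seeing the data. File coordinates are on hg38; promoters are from RefSeq on GRCh38.p14.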

Additional observations from a re-analysis of the deposited data

Results flagged for a closer look

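The change of MUC16 with time differed between the cultures in the fit with the replicate block. At timepoint 3 against timepoint 1 the change in 3D was lower than that in 2D by a log2 difference of -4.29 (adjusted p = 0.00977, edgeR's quasi-likelihood test). The value without the block was -4.74 and was not called (adjusted p = 0.394). MUC16 had 1, 2 and 22 counts in the 3D libraries of timepoint 3, against 237 and 416 counts in the 2D libraries tested and 10 in the 2D library left out.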

How the results depend on the processing

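For genes called over all those tested, the counts were 0, 277 and 278 between cultures at timepoints 1, 2 and 3; 2801 and 2049 in 3D and 1092 and 903 in 2D at timepoints 2 and 3 against timepoint 1; and 0 and 34 for the interactions at timepoints 2 and 3. In the same order of timepoints, the replicate block gave 2949 and 1813 between cultures at timepoints 2 and 3, 5279 and 4447 in 3D, 2539 and 1954 in 2D, and 243 and 290 for the interactions. DESeq2 gave 1360 and 1015 between cultures, 3628 and 2800 in 3D, 1768 and 1580 in 2D, and 29 and 141 for the interactions. No filter gave 49, 1554 and 1625 between cultures, 3421 and 2794 in 3D, and 1622 and 1657 in 2D. For the interactions no filter gave 281 and 479. All 18 libraries gave 82 and 0 between cultures at timepoints 2 and 3 and 0 for the interaction at timepoint 3. The strict filter gave 418 and the header totals 490 between cultures at timepoint 2. There the header totals called 77 genes higher and 413 lower, beside 131 higher and 146 lower, and moved the median of all genes to -0.226. Smaller shifts in these counts, also those with RLE and upper-quartile scaling, are not listed.

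Of the 9 tested members, 0, 0 and 2 were called between cultures, 1 and 4 in 3D, 1 and 2 in 2D, and 0 and 0 in the interactions. At timepoint 2 the replicate block called 3 between cultures, no filter 2, and DESeq2, the strict filter and the header totals 1 each. At timepoint 3 all 18 libraries called 0, and DESeq2 and the block 3 each. In 3D at timepoint 2 the block called 5, and DESeq2 and no filter 2 each. In 3D at timepoint 3 the block and no filter called 6 each, and DESeq2 5. In 2D the block and no filter called 2 each at timepoint 2, and no filter 3 at timepoint 3. For the interactions no filter called 2 at each timepoint, and the block 1 at timepoint 3. Beyond the calls given with the results, the block changed no call of a member. The cause of these shifts was not tested.

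Leaving out 1 library gave 0 to 778 and 35 to 347 genes called between cultures at timepoints 2 and 3, 1252 to 3606 and 1131 to 2749 in 3D, 618 to 1210 and 196 to 986 in 2D, and 0 to 3 and 8 to 34 for the interactions. The lowest of these came without 3D timepoint 2 replicate 1 and 2D timepoint 3 replicate 2 between cultures, 3D timepoint 1 replicate 2 in 3D, and 2D timepoint 2 replicate 1 and 2D timepoint 3 replicate 2 in 2D. Leaving out all libraries of 1 replicate number gave 0 to 14 and 0 to 47 between cultures, 534 to 2069 and 643 to 1220 in 3D, 240 to 375 and 42 to 304 in 2D, and 0 and 0 to 8 for the interactions. The single values between these were 985 and 971 in 3D, and 348 and 136 in 2D. Members called ranged over 0 to 1 and 0 to 2 between cultures, 1 to 2 and 1 to 4 in 3D, 0 to 1 and 0 to 2 in 2D, and stayed at 0 in both interactions. At timepoint 1 neither genes nor members were called in any of these fits. Without 1 replicate number, 2D at timepoint 3 keeps 1 or 2 libraries, and a lone library is assumed to vary like the other groups. RLE and upper-quartile scaling changed no count of members called. Members at few counts, MUC16, MUC20 and HAS2, limit what these libraries can show.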
